A study of Saccharomyces cerevisiae with 16 samples.

Results

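In budding yeast, 10 genes under nitrogen catabolite repression were followed over 8 strains that carry altered forms of Fcp1, 3 of them also without Cdk8. The 10, of 5311 named genes on the array, were chosen by symbol: the proline genes PUT1 (YLR142W), PUT2 (YHR037W) and PUT4 (YOR348C), the general amino acid permease gene GAP1 (YKR039W), the ammonium permease genes MEP1 (YGR121C) and MEP2 (YNL142W), the GABA genes UGA1 (YGR019W) and UGA4 (YDL210W), the allantoate permease gene DAL5 (YJR152W) and the urea transporter gene DUR3 (YHL016C). Each of the 10 had 1 probe.

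Nitrogen catabolite repression is the means by which yeast, given a rich nitrogen source such as glutamine or ammonium, keeps low the genes for taking up and breaking down poorer sources. The GATA activators Gln3 and Gat1 drive these genes when the rich source runs out, and Ure2 holds Gln3 in the cytoplasm while it lasts. Several of the genes need a second signal as well: PUT1 and PUT2 are induced by proline through Put3, and the UGA genes by GABA through Uga3. Fcp1 is the phosphatase that removes phosphate from the tail of RNA polymerase II, and Cdk8, encoded by SSN3 in yeast, is the kinase of the Mediator complex.

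RNA of each strain was hybridised with RNA of a common reference pool on 2-colour spotted arrays, 2 arrays for each of 8 strains and 16 arrays in all. Arrays lettered a carry the strain in Cy3 and those lettered b in Cy5. The strains were fcp1-mut, the truncations 1:713, 1:666, 1:609 and 1:594, and the last 3 truncations with cdk8-del. Full labels run as fcp1-trunc-1:713-tag-flag, or fcp1-mut-tag-flag for the first strain, and +cdk8-del follows for the deletion strains. All 8 thus carry a FLAG tag, and the change in fcp1-mut is not stated. No untagged strain is among the groups. The pool is labelled only as a reference pool, with no genotype, and a protocol other than that of the strains gave its RNA, so a difference from the pool can hold strain background and protocol. The series description speaks of duplicate profiles at mid-log phase, compared with wild type. Whether arrays a and b stem from different cultures is not stated, and all p-values below therefore measure the spread between arrays alone, which may be technical. Nor is the nitrogen source of the medium stated.

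The strains differed by more than their names. LYS2, a lysine synthesis gene, averaged 2.73 to 3.40 (log2 strain over reference) in the 4 strains with the 1:609 or 1:594 truncation and -0.10 to 0.12 in the others. MET17, a sulfur assimilation gene, averaged -4.92 to -4.51 in 6 strains but -0.05 in 1:666 cdk8-del and -0.44 in 1:594 cdk8-del. The FCP1 probe read -3.49 to -2.77 in the 4 strains with the shorter truncations and -0.31 to -0.20 in the others; its position relative to the truncated part is not stated, so it does not check the labels. SSN3 was above background on 10 of 16 arrays, and the 6 arrays where it was not were those of the 3 cdk8-del strains, as labelled. Median gene signals were 293 to 1060 in the strain channel and 211 to 975 in the reference channel, over a median local background of 41 to 72. The number of arrays limits the precision of every value below.

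Values are log2 ratios of strain over reference after lowess scaling, which sets the typical gene to 0. A gene was called changed at a Benjamini-Hochberg adjusted p under 0.01 together with a fold above 1.7, two-sided, in 1 limma model over all 6388 probes. GAP1 and PUT4 varied most among the 10 genes: their 8 strain means spanned 1.90 and 1.74. MEP2 spanned 0.90 and DUR3 0.87, and the other 6 spanned 0.17 to 0.46. No gene among the 10 was called lower in any comparison, where 0.0157% to 2.4% of all probes were. This holds for the main settings only. In 1:609 against the pool, PUT1, PUT2, MEP1, UGA1 and UGA4 were each called lower under 2 of 10 other settings, 1 of them a looser call rule.

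**Figure D1:**
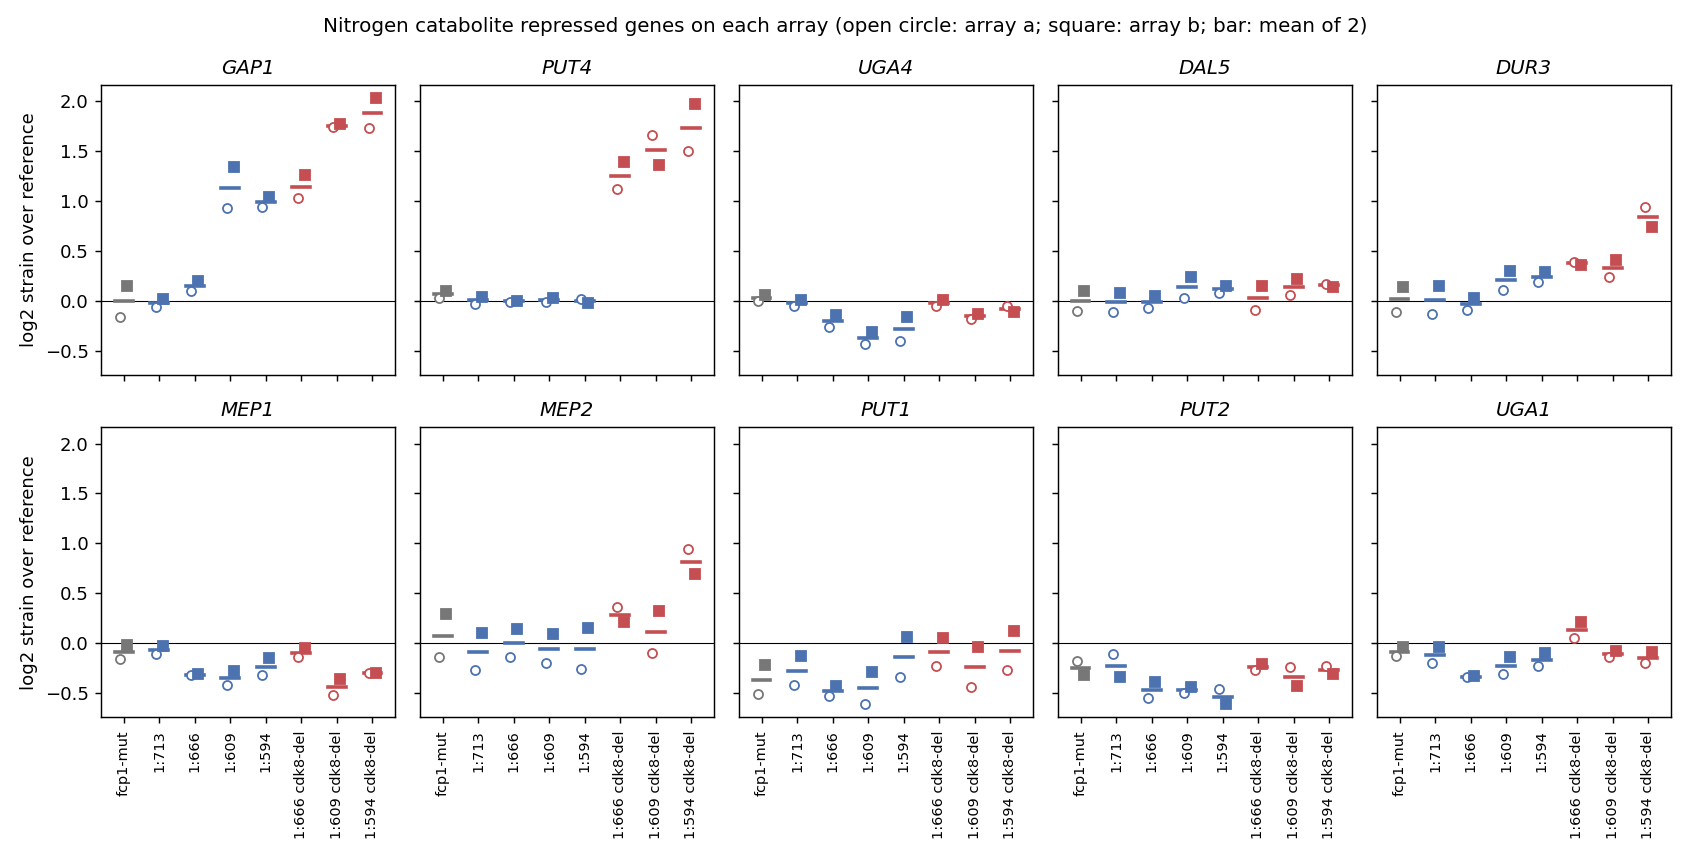
Log2 strain over reference (vertical axis) of the 10 genes on each of 16 arrays in 8 strains (horizontal axis); open circles are arrays a, squares arrays b and bars the mean of 2. GAP1 is high in 1:609, 1:594 and the cdk8-del strains, PUT4 in the cdk8-del strains, and 6 genes have strain means that span 0.46 or less.

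GAP1 encodes the permease that takes up most amino acids. In fcp1-mut the ratios were -0.16 and 0.15 on arrays a and b, in 1:713 they were -0.06 and 0.02, and in 1:666 they were 0.10 and 0.20. In 1:609 they were 0.93 and 1.34, and in 1:594 they were 0.94 and 1.04. All 4 arrays of the shorter truncations thus lay above all 6 arrays of fcp1-mut, 1:713 and 1:666. In the cdk8-del strains the ratios were 1.03 and 1.26 with 1:666, 1.74 and 1.77 with 1:609, and 1.73 and 2.03 with 1:594. In the order of the 8 strain means, 3 steps can be seen: -0.02 to 0.15, 0.99 to 1.15, and 1.75 to 1.88. The arrays of 1:594, 1:609 and 1:666 cdk8-del overlapped one another in the middle step, and those of 1:609 cdk8-del and 1:594 cdk8-del overlapped in the top one.

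Against 1:713, the longest truncation, GAP1 was higher by 1.16 ± 0.15 (SE, 2 arrays a strain) in 1:609, a 2.23-fold difference with a limma adjusted p of 0.000642 that was not called under median centring (adjusted p = 0.0206) or external control scaling (adjusted p = 0.0141). In 1:594 it was higher by 1.01 ± 0.15 (adjusted p = 0.0021), a call lost when any 1 of the 4 arrays was left out (0.96 to 1.06). Such a fit leaves the strain with 1 array in 1 dye. The call was also lost under median centring (1.03) and external control scaling (0.95). With the array letter as a block it stood (adjusted p = 3.81e-06). In 1:666 the difference from 1:713 was 0.17, with a 95% interval of -0.16 to 0.51, and was not called. Against 1:666, GAP1 was higher by 0.99 ± 0.15 in 1:609 (adjusted p = 0.00536). That call was lost without either 1:666 array or without array b of 1:609, where the difference was 0.94, 1.03 and 0.78. Against 1:666, 1:594 differed by 0.84 and missed the limit (adjusted p = 0.0181), and with the array letter as a block it passed (adjusted p = 5.88e-05), where 0.344% of all probes were called higher. Against the pool, GAP1 was called in 1:609 at 1.14 ± 0.11 and in 1:594 at 0.99 ± 0.11. Both calls were lost, at 0.37 and 0.47, when arrays were scaled on the external control spots, which moved the typical gene by -0.70 and -0.48 in those strains.

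Deletion of CDK8 was set against the same truncation with CDK8. GAP1 was higher by 0.99 ± 0.15 in 1:666 (1.99-fold, adjusted p = 0.00116) and by 0.89 ± 0.15 in 1:594 (1.86-fold, adjusted p = 0.00422). In 1:609 the difference was 0.62 ± 0.15, with an adjusted p of 0.037, and was not called. Averaged over the 3 truncations, it was 0.83 ± 0.088 (1.78-fold, adjusted p = 4.71e-05), and no array decided that call. The call in 1:666 was lost without 1:666 array a or 1:666 cdk8-del array b (0.95 and 0.88), and the call in 1:594 was lost without 1:594 array a or b or 1:594 cdk8-del array b (0.85, 0.94 and 0.74). The deletion effect in 1:609 minus that in 1:666 was -0.38, with an interval of -0.85 to 0.10, and no difference between deletion effects was called for any of the 10 genes, beside 0.0157%, 0.157% and 0.125% of all probes for 1:609 minus 1:666, 1:594 minus 1:666 and 1:594 minus 1:609. MET17 differed with the deletion in 1:666 and 1:594, by 4.46 and 4.10, but by 0.28 in 1:609, while LYS2 differed by -0.42 to 0.35 in the 3 pairs; the part of these markers in the deletion differences of GAP1 and PUT4 was not tested. LYS2 and FCP1 split the truncations as GAP1 did, so the truncation and the rest of the strain background cannot be told apart in the comparisons of 1:609 and 1:594 with 1:713 or 1:666.

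PUT4 encodes the high-affinity proline permease. Its ratios lay between -0.03 and 0.10 on all 10 arrays of the strains with CDK8. With cdk8-del they were 1.12 and 1.39 in 1:666, 1.66 and 1.36 in 1:609, and 1.50 and 1.97 in 1:594. No array of one kind overlapped the other. The strain signal was above background on 6 of 16 arrays, those of the cdk8-del strains, where it reached up to 7.69 times the local background. On the 10 other arrays PUT4 was not above background in the strain channel, so its level there is only bounded and the ratios near 0 compare dim spots with dim spots.

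Set against the same truncation with CDK8, PUT4 was called higher with cdk8-del in all 3 truncations. The fitted log2 differences were 1.26 in 1:666 (2.39-fold, limma adjusted p = 0.000178), 1.50 in 1:609 (2.83-fold, adjusted p = 0.000148) and 1.74 in 1:594 (3.33-fold, adjusted p = 4.84e-05). With plain background subtraction they were 3.89, 3.57 and 3.67. In the strain channel alone, PUT4 was at least 2.9-fold, 3.25-fold and 3.61-fold higher, in the same order. Each of these bounds takes the mean of the cdk8-del strain over the higher of the dim spot and the lowest signal that stood above background on its array. They leave out the reference channel and lie above the fitted folds, so they do not bound the fitted ratios from below. The offset of the background correction pulls bounds and fitted values alike towards 0. Against 1:713 the strain-channel bounds were 2.88-fold, 3.27-fold and 3.63-fold in the same order. Since each deletion effect is only bounded, the size of PUT4 effects in different truncations cannot be ordered: the fitted difference between 1:594 and 1:666 was 0.48, but -0.21 with plain background subtraction, and neither was called. Against the pool, PUT4 was called higher in all 3 cdk8-del strains. The pool signal was above background on 4 of 16 arrays, at only 1.21 to 1.43 times it. PUT4 was at least 2.33-fold higher in 1:666 cdk8-del, where neither reference spot was above background. The fitted values were 1.51 in 1:609 cdk8-del, where 1 of 2 reference spots was, and 1.74 in 1:594 cdk8-del, where both were, and these became 3.57 and 3.68 with plain background subtraction. Under median centring none of the PUT4 calls set against the same truncation stood (adjusted p 0.7, 0.849 and 0.496), although the fitted differences of 1.39, 1.67 and 2.13 were no smaller than with lowess. Also lost there were the calls against 1:713 (adjusted p 0.793, 0.566 and 0.445) and against the pool (0.336, 0.194 and 0.129). The call for cdk8-del on average was lost as well (0.0813).

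**Figure D2:**
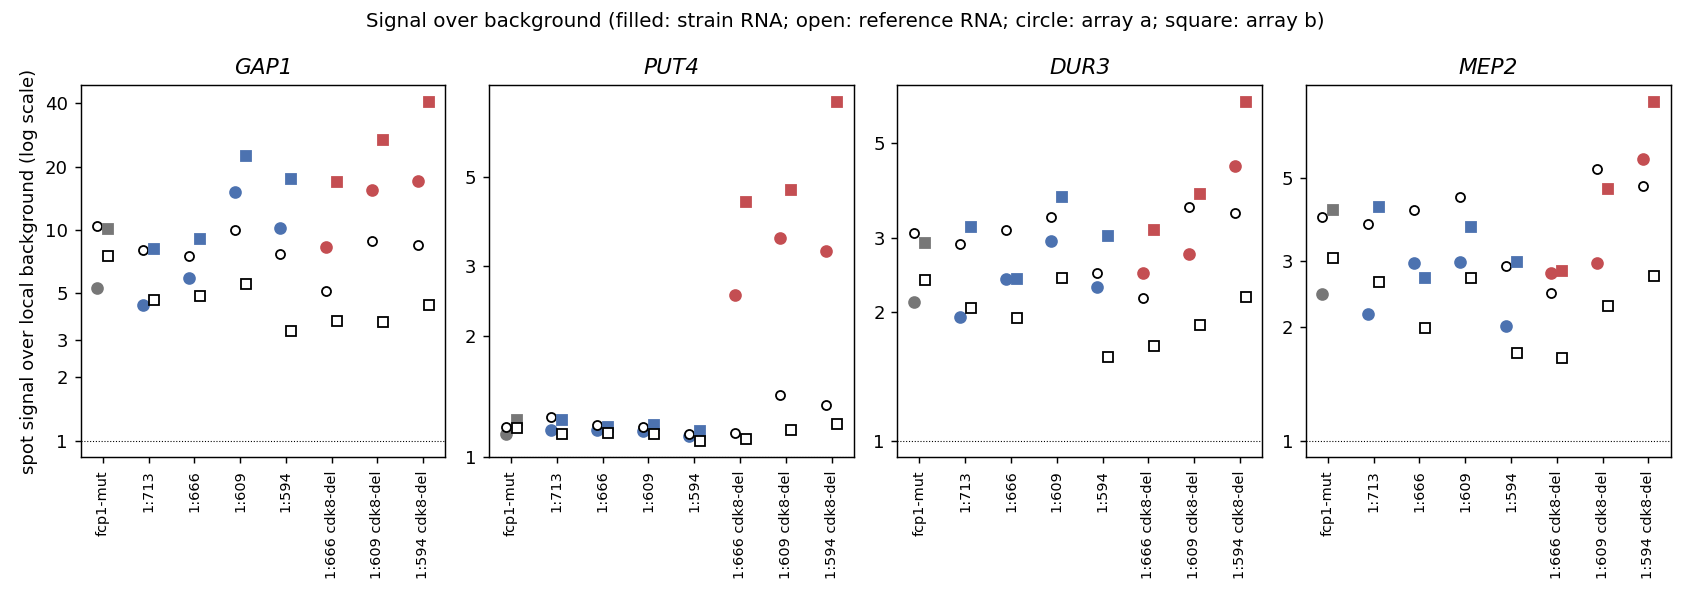
Spot signal over local background (vertical axis, log scale) of GAP1, PUT4, DUR3 and MEP2 on the arrays of 8 strains (horizontal axis); filled symbols are strain RNA, open ones reference RNA, circles arrays a and squares arrays b. PUT4 strain signals stay near the background except in the 3 cdk8-del strains, and GAP1 strain signals range from 4.4 to 40.6 times the background.

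DUR3 transports urea and polyamines into the cell. Its ratios were between -0.13 and 0.15 on the 6 arrays of fcp1-mut, 1:713 and 1:666, and between 0.11 and 0.30 on the 4 arrays of 1:609 and 1:594. With cdk8-del they were 0.39 and 0.36 in 1:666, 0.24 and 0.41 in 1:609, and 0.94 and 0.74 in 1:594. The pair of 1:594 cdk8-del stood above all other arrays. In that strain DUR3 was called against 1:713, at 0.83 ± 0.12 (1.77-fold, adjusted p = 0.00093), and against the pool, at 0.84 ± 0.088 (adjusted p = 3.65e-05). Both folds lie just above the limit, and both calls were lost without array a of 1:594 cdk8-del, at 0.72 and 0.74; the call against 1:713 was also lost without array a of 1:713, at 0.69. Neither call stood under median centring, print-tip lowess, external control scaling or with the deposited ratios. The largest difference under any other setting was 1.16 against 1:713 and 1.18 against the pool. DUR3 reference signals were 1.57 to 3.53 times the background. The deletion itself differed by 0.60 in 1:594 (adjusted p = 0.0127), 0.40 in 1:666 and 0.12 in 1:609, with no call.

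MEP2 is the high-affinity ammonium permease, which also acts as a sensor in filamentous growth. Its ratios on arrays a and b were -0.14 and 0.29 in fcp1-mut, -0.27 and 0.10 in 1:713, -0.14 and 0.14 in 1:666, -0.20 and 0.09 in 1:609, and -0.26 and 0.15 in 1:594. Array b was the higher one in each of these 5 strains. With cdk8-del they were 0.36 and 0.21 in 1:666, -0.10 and 0.32 in 1:609, and 0.94 and 0.69 in 1:594, so that 1:594 cdk8-del again lay above every other array. MEP2 was called there against the pool, at 0.82 ± 0.15 (1.76-fold, adjusted p = 0.0017), and the call was lost without array a or array b of that strain (0.69 and 0.94), under median centring (0.72) and with external control scaling (0.38). Against 1:713 it was higher by 0.90 ± 0.21 but missed the limit (adjusted p = 0.0124), and with the letter as a block it passed (adjusted p = 0.000375), beside 2.6% of all probes called higher. The deletion effect in 1:594, 0.87 ± 0.21, behaved likewise, with adjusted p = 0.0301 without and 0.00102 with the block, beside 2.21% of all probes. In 1:609 the deletion difference was 0.16 and in 1:666 it was 0.28, neither called. The effect in 1:594 minus that in 1:609 was 0.71, with an interval of 0.04 to 1.38, and was not called.

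The 3 remaining transporter genes were not called in any of the 23 comparisons under the main settings, in which 0.0157% to 4.57% of all probes were. DAL5, the allantoate permease, lay between -0.11 and 0.24 on all 16 arrays, and its deletion differences were 0.04, 0.01 and 0.04 in 1:666, 1:609 and 1:594. Averaged over the truncations, the DAL5 difference had a 95% interval of -0.12 to 0.18, below the averages for GAP1 and PUT4. The GABA permease UGA4 was lowest in 1:609 (-0.43 and -0.31) and 1:594 (-0.40 and -0.16), and differed from the pool by -0.37 (adjusted p = 0.000857) and -0.28 (adjusted p = 0.00541) there, below the fold limit. MEP1, a further ammonium permease, was below 0 on 16 of 16 arrays. Its lowest strain mean was that of 1:609 cdk8-del, with arrays at -0.52 and -0.36, where the difference from the pool was -0.44 (adjusted p = 0.000325), again below the fold limit.

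The 3 enzyme genes likewise gave no call. PUT1, the proline oxidase of the first step of proline breakdown, ranged from -0.61 on array a of 1:609 to 0.12 on array b of 1:594 cdk8-del. In all 8 strains array b was the higher one, by 0.31 on average, which is of the size of the spread of 0.40 between its strain means. PUT2, the enzyme of the next step in the mitochondrion, was below 0 on 16 of 16 arrays, with its lowest mean of -0.53 in 1:594 (adjusted p = 0.000341 against the pool, 1.45-fold lower) and its highest of -0.22 in 1:713. Against 1:713 no PUT2 difference had an adjusted p under 0.05 without the block; with the letter as a block -0.25 in 1:609 (adjusted p = 0.0342) and -0.31 in 1:594 (adjusted p = 0.0125) did, both below the fold limit. UGA1, the GABA transaminase, was -0.34 and -0.33 in 1:666 and 0.05 and 0.21 in 1:666 cdk8-del. The deletion difference of UGA1 in 1:666 was 0.46 ± 0.092 (adjusted p = 0.00579), 1.38-fold and so below the fold limit, and was 0.12 in 1:609 and 0.02 in 1:594. Over the 3 truncations the deletion difference was 0.22 ± 0.12 in PUT1 and 0.21 ± 0.059 in PUT2, and neither was called. Without the block the limma adjusted p was 0.201 in PUT1 and 0.0242 in PUT2. With the letter as a block it was 0.000368 and 0.00335, and both stayed below the fold limit.

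**Figure D3:**
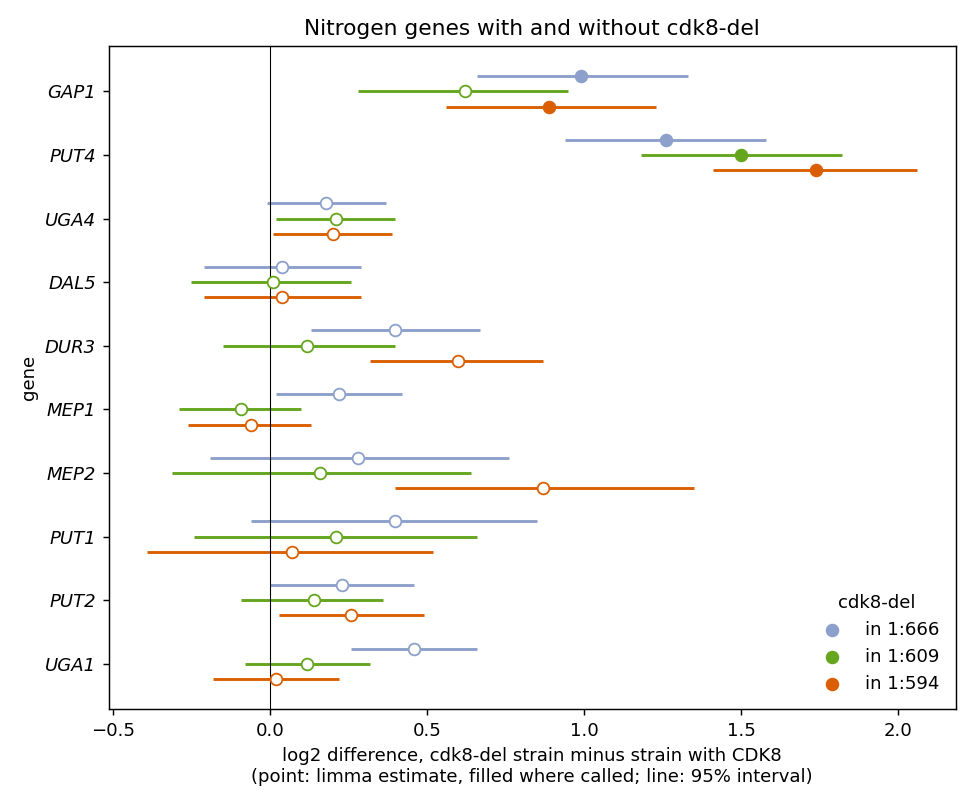
Log2 difference between each cdk8-del strain and the same truncation with CDK8 (horizontal axis) for the 10 genes (vertical axis); points are limma estimates, filled where called, and lines 95% intervals. PUT4 is filled in all 3 truncations and GAP1 in 1:666 and 1:594, and the other 8 genes are open throughout; the PUT4 points are fitted values against spots not above background.

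Counted over the 10 genes, cdk8-del gave 2 higher calls in 1:666, where 3.3% of all probes were called higher, 1 in 1:609, where 1.36% were, and 2 in 1:594, where 1.68% were. On average over the truncations, 2 were called higher against 2.33% of all probes. The median difference of the 10 genes was 0.34, 0.15 and 0.23 in 1:666, 1:609 and 1:594, beside 0.00 over all probes. At the looser limit of an adjusted p under 0.05 and no fold limit, without the block, 7 of the 10 were higher on average, against 14.5% of all probes: PUT4, GAP1, DUR3, MEP2, PUT2, UGA4 and UGA1. PUT1 passed that limit only with the letter as a block. With arrays scaled on the external control spots the typical gene itself moved by 0.34 in 1:666, 0.47 in 1:609 and 0.04 in 1:594, as much as the median of the 10 in 1:666, more than it in 1:609 and less in 1:594.

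Against the pool, 0 of 10 were called in fcp1-mut, 1:713 and 1:666, where 0.235%, 0.172% and 0.626% of all probes were called in limma. At an unadjusted p under 0.05, 2, 1 and 5 of the 10 were lower in these strains, beside 6.32%, 4.21% and 13.1% of all probes, and 0 higher. In 1:609 and 1:594, GAP1 alone was called higher, against 0.72% and 0.657% of all probes. In 1:666 cdk8-del and 1:609 cdk8-del, 2 were called higher, against 2.99% and 1.82%, and in 1:594 cdk8-del 4 were, against 2.57%: PUT4, GAP1, MEP2 and DUR3. The medians of the 10 against the pool were -0.14 to 0.08 over the 8 strains, beside 0.00 to 0.01 over all probes. Against 1:713, the counts called higher were 0 in 1:666, 1 in 1:609, 1 in 1:594, and 2, 2 and 3 in the cdk8-del strains of 1:666, 1:609 and 1:594. The shares of all probes called higher there were 0%, 0.501%, 0.423%, 2.8%, 1.82% and 2.3%. Against 1:666, 1 was called higher in 1:609, beside 0.172% of all probes, and 0 in 1:594, beside 0.188%. The comparisons that share the pool, 1:713 or 1:666 are not independent of each other.

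Beyond the 10, nitrogen genes were counted in 4 further lists with 52 probes. Of 16 other transporters and catabolic enzymes, DCG1 and MEP3 were called, both lower. DCG1, which lies between DAL2 and DAL7 in the order of locus tags (YIR029W, YIR030C, YIR031C), averaged 0.05 in fcp1-mut and -0.02 in 1:713. It averaged -1.08 in 1:666, where the call was lost without either array, -1.74 in 1:609, -1.44 in 1:594, and -1.10, -1.54 and -1.54 in the cdk8-del strains of 1:666, 1:609 and 1:594. In these 6 strains 0.501%, 2.4%, 1.6%, 0.924%, 1.91% and 2% of all probes were called lower than the pool, in the same order. All 11 DCG1 calls, against the pool and against 1:713, were lost under median centring. DCG1 differed between each cdk8-del strain and its truncation by -0.10 to 0.20, with no call. The strain signal of DCG1 fell to 1.24 times the background, though it was above it on 16 of 16 arrays. Under another setting the difference from the pool in 1:594 was -3.41, so the size of the DCG1 differences is uncertain. The 5 neighbours of DCG1, DAL1, DAL2, DAL3, DAL4 and DAL7, genes of allantoin uptake and breakdown, were not called in any comparison, where 0.0157% to 4.57% of all probes were. MEP3, the third ammonium permease gene, was called lower than the pool in 1:609 (-0.78) and 1:594 (-0.79), both lost without array a of that strain. Both MEP3 calls were also lost under median centring (-0.75 and -0.74) and print-tip lowess (-0.76 and -0.71). With the deposited ratios the call in 1:594 was lost (-0.75).

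None of 18 regulators was called in any of the 23 comparisons in limma, in which 0.0157% to 4.57% of all probes were. At such shares, none of 18 does not set the regulators apart from all probes. Among the 18 were GLN3, GAT1, URE2, DAL80, GZF3 and PUT3. DAL80 lay near the background, at 1.19 to 1.36 times it in the strain channel and 1.15 to 1.46 times in the reference channel. Its ratios near 0 thus compare dim spots with dim spots and do not show that it was unchanged. With cdk8-del, the averages of the 18 regulators over the truncations ran from -0.29 to 0.19. Of these, 3 were higher and 1 was lower with p under 0.05 before adjustment, where 19.2% of all probes were higher and 17.4% lower. Of 6 genes for ammonium assimilation and proline synthesis, GDH1 was called higher in 5 comparisons, in which 0.172% to 0.72% of all probes were, and GLT1 lower in 1, in which 1.6% were. GDH1, the glutamate dehydrogenase that fixes ammonium, was higher than 1:713 by 0.97 in 1:609 and by 0.79 in 1:594. GLT1, the glutamate synthase, differed from the pool by -0.77 in 1:594, a call lost without 1:594 array a (-0.62). The GLT1 call was also lost under median centring (-0.61) and print-tip lowess (-0.71). GDH1 was 0.95 and 1.02 on the arrays of 1:609 but 0.40 and 0.42 in 1:609 cdk8-del, a deletion difference of -0.58 that was not called. The GDH1 call against 1:713 in 1:609 was lost without either 1:713 array or without array b of 1:609, and that in 1:594 without any 1 of its 4 arrays. Both were also lost under median centring (limma adjusted p 0.24 and 0.409) and external control scaling (0.042 and 0.241). Against the pool, external control scaling left GDH1 at 0.30 in 1:609 and 0.17 in 1:594, with no call.

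Of 12 genes of the Ssy1-Ptr3-Ssy5 amino acid sensor and its permeases, PTR2 was called higher in 12 comparisons, in which 0.172% to 3.3% of all probes were, and GNP1 lower in 2, in which 1.91% and 2% were. PTR2, the peptide transporter, was 0.86 and 1.10 on the arrays of 1:609, 0.99 and 1.11 in 1:594, and between 1.19 and 1.49 on the 6 cdk8-del arrays, but at most 0.37 on the 6 arrays of fcp1-mut, 1:713 and 1:666. The PTR2 calls in 1:594 against 1:713, and in 1:609 and 1:594 against 1:666, were lost when any 1 of the 4 arrays was left out. They were also lost under median centring and external control scaling. Against the pool, external control scaling left PTR2 at 0.21 in 1:609 and 0.54 in 1:594, with no call. PTR2 was 1.13 ± 0.14 higher with cdk8-del in 1:666 (adjusted p = 0.000237), and the deletion differences of 0.27 in 1:609 and 0.39 in 1:594 were not called. GNP1, a glutamine permease, was lower than the pool in 1:609 cdk8-del (-0.84) and 1:594 cdk8-del (-0.80), each lost without array a of that strain. Both GNP1 calls were also lost under median centring (-0.77 and -0.74). That in 1:594 cdk8-del was lost under print-tip lowess (-0.72) and with the deposited ratios (-0.76) too.

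**Figure D4:**
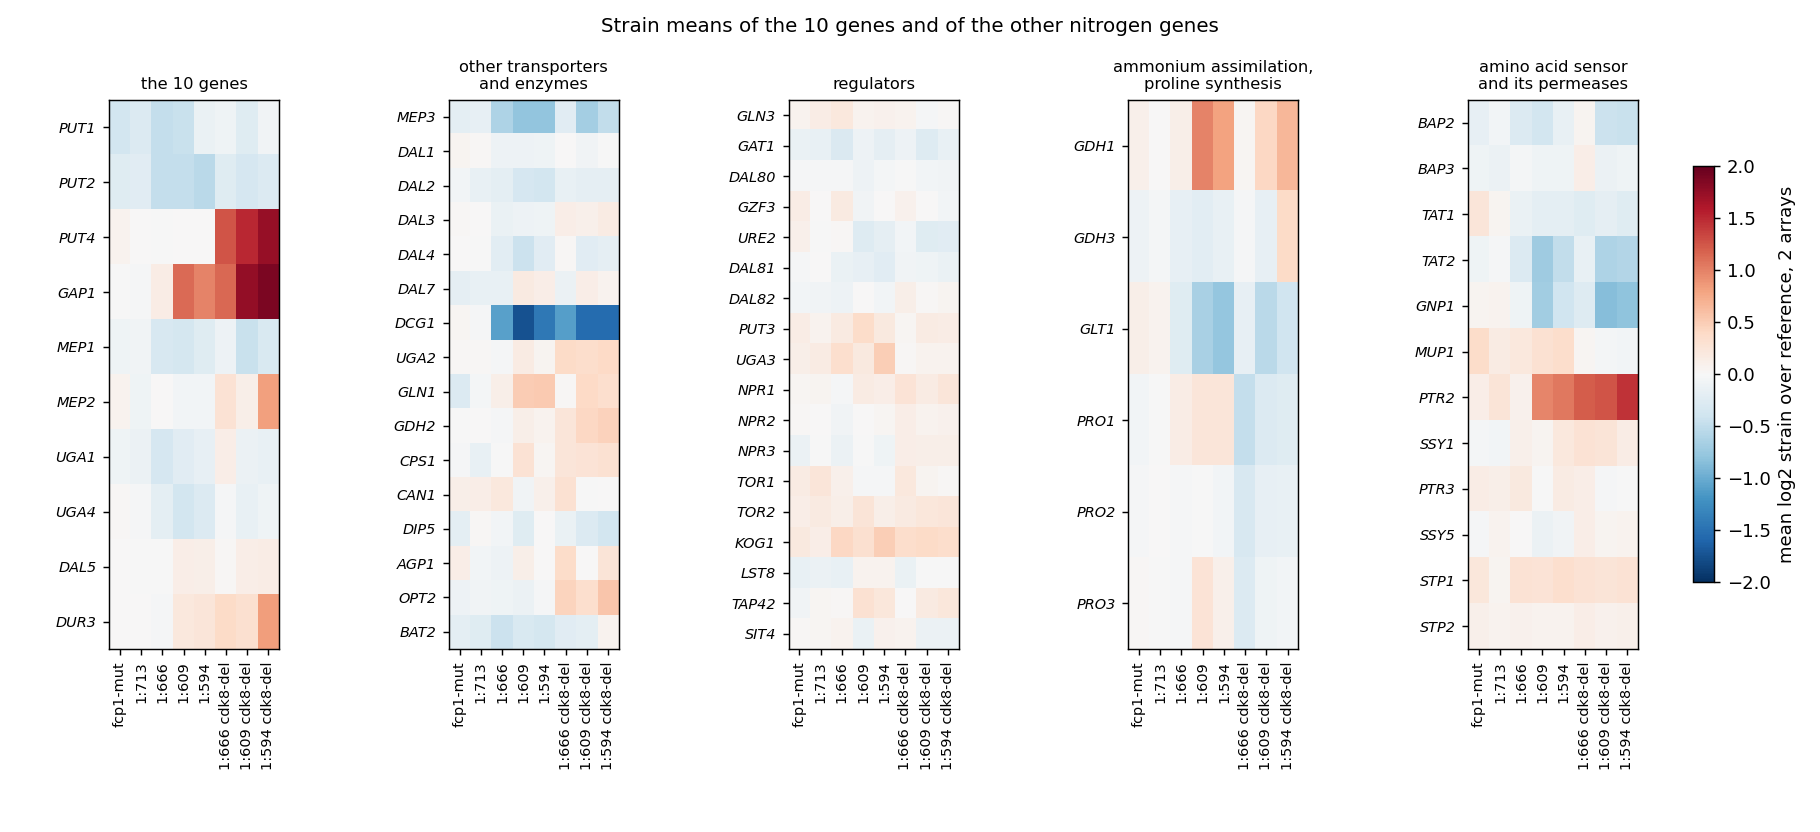
Mean log2 strain over reference of 2 arrays (colour, from -2 blue to 2 red) for the 10 genes and 52 other nitrogen genes (rows, by list) in 8 strains (columns). GAP1, PUT4 and PTR2 are red in the cdk8-del strains, DCG1 is blue in all strains but fcp1-mut and 1:713, and the regulators stay pale.

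Among all named genes, the strain pattern most like that of GAP1, by Pearson correlation of the 8 strain means, was that of IRC24 (r = 0.996), CTL1 (r = 0.990) and MRPL9 (r = 0.989). These genes moved over a smaller span: their strain means ranged over 0.49, 0.53 and 0.46, against 1.90 for GAP1. Among the 10, the 5 pairs whose strain means correlated most were PUT2 with UGA4 (0.91), MEP2 with DUR3 (0.90), GAP1 with DAL5 (0.90), GAP1 with DUR3 (0.87) and PUT4 with DUR3 (0.84), and the lowest correlation was that of MEP1 with DAL5 (-0.71). The points share the arrays and the reference pool, so these correlations over 8 strains are a description only.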

How the data were processed

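Per the file headers, the deposited scanner files give an unnormalised intensity for each spot (the mean over its pixels) and for its surroundings (the median), in both channels. The authors also deposited log2 ratios, which the series description calls normalised to total mRNA; their background treatment is not stated. Compared with the scanner values, the deposited log2 ratios ran as strain over reference (r 0.621 to 0.977), with medians of -0.013 to 0.0182, and were used as an alternative.

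An array holds 15552 spots in 48 grids, among them 12776 gene spots (6388 probes, 2 spots each) and 1872 external control spots. One gene symbol was given for 5326 probes, of which 5324 matched RefSeq (58 updated); 1062 have none. Background was corrected with normexp (offset 50), ratios scaled by lowess (span 0.4, 3 robust iterations) over gene spots, and turned to strain over reference. In limma 3.58.1 (R 4.3.3) a model of strain means took all 16 arrays (8 residual and 2.57 prior degrees of freedom) and 23 contrasts taken, each adjusted over 6388 probes. A spot was above background at 3 background standard deviations. The method was also run on simulated data, a self-test that does not bear on any single call above.

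The letter coincides with the dye orientation. Deviations of same-lettered arrays from their strain means correlated between all 28 pairs of strains (0.599 to 0.914), so the letters pair the arrays; the fit with the letter as a block is given where it changes a call. Alternatives were plain subtraction, median centring, print-tip lowess, external control scaling, deposited ratios, leaving out dim probes, the block, a looser call rule and leaving out each array. With 1 array left out, its strain keeps 1 array in 1 dye, and no letter term was fitted. Strain and dye cannot be told apart for that strain, so a call lost there can hold the dye difference. Genes outside the 10 were named where called, at most 3 per list, and the 3 closest to the widest member were named. The genes and lists were chosen with earlier results of these data known. Promoter sequences were not used here.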

Additional observations from a re-analysis of the deposited data

How the results depend on the processing

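Of 1046 values of single genes under other settings, over 91 pairs of a gene and a comparison, 859 kept direction and side of the limit, 137 were weaker, 50 stronger and 0 reversed. The count of calls among the 10 genes against the pool, 10 in all, was 5 under median centring, 20 with external control scaling and 28 under the looser rule, of which 12 were higher and 16 lower. External scaling gave 3, 1, 3, 5 and 2 in fcp1-mut, 1:713, 1:666, 1:609 and 1:594, where 48%, 4.98%, 14.9%, 40.1% and 18.4% of all probes were called, and 2 in 1:594 cdk8-del (13.2%). That scaling moved the typical gene by -0.76 to -0.15 against the pool. The looser rule gave 3 in 1:666, 6 in 1:609, 4 in 1:594, 4 in 1:666 cdk8-del, plus 5 for 1:609 cdk8-del. There 12%, 33.9%, 30.5%, 29.8% and 34% of all probes passed. Of these calls among the 10, 3, 5, 3, 1 and 2 were lower. In 1:594 cdk8-del it gave 4 higher and 2 lower, beside 35.4% of all probes. Median centring left 1 in each cdk8-del strain, beside 2.63%, 2.55% and 3.1% of all probes with 1:666, 1:609 and 1:594. The filter on dim probes, which removed PUT4, left 1 with 1:666 cdk8-del and 1 with 1:609 cdk8-del. Leaving out single arrays gave 2 to 3 in 1:594 cdk8-del. The shares of all probes called were not counted for the dim-probe filter or for fits without single arrays. Against 1:713, with 9 calls, median centring gave 2 in all, 1 each for 1:609 and 1:594 when joined with cdk8-del, and 0 elsewhere. In those 2 strains 1.02% and 1.35% of all probes were called. External scaling gave 0 in 1:609 and 1:594, beside 1.1% and 0.376% of all probes. The looser rule gave 2 in 1:609, 1 higher and 1 lower, beside 17.5% of all probes. Leaving out dim probes, and PUT4 with them, gave 1 in 1:666 cdk8-del and 1:609 cdk8-del. Against 1:666, with 1 call, plain subtraction, median centring, print-tip lowess and external scaling gave 0. Deposited ratios, the replicate block and the looser rule gave 2, with 1 of them in 1:594. There 0.626%, 0.642% and 2.52% of all probes were called in 1:594, and 1.53%, 1.36% and 7.03% in 1:609. For cdk8-del, with 7 calls, median centring gave 1, leaving out dim probes 3 and the looser rule 16. Median centring gave 0 in each truncation and 1 on average. The shares of all probes called there were 1.68%, 0.814% and 0.642% in 1:666, 1:609 and 1:594, and 2.07% on average. Leaving out dim probes, which removed PUT4 and left 6289 probes, gave 1 in 1:666 and 1:594, 0 in 1:609 and 1 on average. The looser rule gave 3 in 1:666, 2 in 1:609, 4 in 1:594 and 7 on average, all higher. Beside them 9.78%, 4.7%, 5.56% and 14.5% of all probes were higher. External scaling gave 2 in 1:609, beside 4.45% of all probes. Plain subtraction and print-tip lowess gave 1 in 1:594, beside 2.68% and 2.14%. No difference between deletion effects was called for the 10 under any setting run.

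For the wider lists, calls in either direction against the pool went from 18 to 5 (median centring), 76 (external) and 93 (looser). By strain, 0.157% to 3.1%, 4.98% to 48% and 1.17% to 35.4% of all probes were called under these settings. Against 1:713 they went from 11 to 3, 6 and 44, beside 0% to 1.35%, 0.0313% to 4.23% and 0.657% to 21.8% of all probes. Without single arrays they were 5 to 12. Against 1:666 they went from 3 to 0, 0 and 6, beside at most 0.0783%, 0.141% and 7.03%. Without single arrays they were 0 to 1. For cdk8-del they went from 1 to 6 (plain subtraction), 2 (external) and 24 (looser), beside at most 5.15%, 5.68% and 26.7%. Differences between deletion effects went from 0 to 2 (deposited ratios) and 1 (replicate block), beside at most 0.798% and 0.751%. Beyond GAP1 in 1:594 against 1:666 and MEP2 in 1:594 cdk8-del, the replicate block changed no call among the 10. GAP1 in 1:666 cdk8-del against 1:713 was not called under median centring, and GAP1 with cdk8-del in 1:594 was not called under plain subtraction (0.92), median centring (0.89) or print-tip lowess (0.91). DUR3 in 1:594 cdk8-del against the pool was not called under median centring, print-tip lowess, external scaling or deposited ratios (0.73, 0.75, 0.42 and 0.75), nor against 1:713 (0.69, 0.76, 0.72 and 0.76). The cause was not tested. PUT4 lies near background in the strains with CDK8, which limits its fold to a bound.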
